A study of Mus musculus with 10 samples.

Results

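The nuclear-encoded subunits of respiratory complexes II to V were compared between livers of mice given DEHP and livers of mice given CMC. Members were taken from the deposited expression table by gene symbol. Complex II gave Sdha to Sdhd, complex III the Uqcr genes and Cyc1, complex IV the subunit genes with symbols from Cox4 to Cox8, and complex V the Atp5 genes. Of 46 genes with such a symbol, 43 had at least 0.5 FPKM (sequenced fragments scaled by transcript length and by library total) in at least 5 of the 10 libraries, and these 43 are the members. They stand among 11242 genes that passed the same filter and were tested, and comprise 4 genes of complex II, 9 of complex III, 13 of complex IV and 17 of complex V. Cox4i2, Cox8b and Cox6a2 did not reach the filter. The symbol rule and the filter use no difference between the groups, but the set was proposed with earlier results of these data known. A gene high in a single group can still pass the filter, and Cox6b2 passed only with its DEHP libraries. Among the members, Cox7a2l and Atp5s carry subunit-like symbols for proteins that are not constant subunits of their complexes.

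The DEHP group held 5 liver libraries. Its mice received 2500 mg of DEHP per kg of body weight by gavage, DEHP being a phthalate used to soften plastics. The CMC group held 5 liver libraries from mice gavaged with 0.5% CMC alone. Mice of both groups were male, on a C57BL/6 background, and lacked Pparg, which encodes the nuclear receptor PPAR gamma, through a liver-specific knockout, so no livers with intact Pparg entered these comparisons. The labels give 12 mice of 20 to 30 g per group. The sources used here give neither the age of the mice nor the length of the treatment, the Cre driver or the deleted exons. No label ties a library to a mouse, so the p-values reflect the spread between listed samples, which may in part be technical. Below, DEHP livers and CMC livers stand for the 5 libraries of each group, and n counts libraries, not mice.

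These complexes sit in the inner mitochondrial membrane. Complex II passes electrons from succinate to ubiquinone, complex III passes them from ubiquinol to cytochrome c, and complex IV passes them on to oxygen. Complex V, the ATP synthase, uses the proton gradient built by the chain to make ATP, and in liver the chain also takes up the electrons released by fatty acid oxidation. Complexes III, IV and V contain subunits encoded in mitochondrial DNA as well, which were not analysed here. Several complex IV subunits exist as tissue isoforms, among them liver forms, heart and muscle forms and a testis form.

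The libraries, named here by group and number, resembled each other in size. Summed FPKM was 714452 ± 24455 per DEHP library and 714302 ± 10866 per CMC library (SD, n = 5 each), and total depth is unknown from FPKM. Pearson correlations of log2 values between libraries were 0.980 to 0.986 within DEHP, 0.976 to 0.986 within CMC and 0.964 to 0.978 between the groups. Median-of-ratios size factors computed on the FPKM values ran from 0.973 to 1.08 in DEHP and from 0.950 to 1.03 in CMC libraries. Pparg, the targeted gene, stood at 7.51 ± 1.41 FPKM in DEHP and 3.94 ± 1.43 FPKM in CMC livers, a value over all exons that does not check the deletion. Hepatocyte markers were among the most abundant genes, with Alb, Ttr and Apoa1 lower and Fabp1 higher in DEHP livers. Of the skeletal muscle markers, 6 of 9 were in the table and 4 of these were listed at 0 in every library. The summed level of the 6 was 0.61 to 1.90 FPKM in DEHP and 0 to 3.03 FPKM in CMC livers. Of the other markers, Rgs5 of pericytes and Alas2 of erythroid cells were called lower, and no tested marker of heart muscle, Kupffer cells, stellate cells, endothelium, cholangiocytes, lymphocytes or neutrophils was called. Fat markers summed to at most 0.46 FPKM in DEHP and 0.28 FPKM in CMC livers. Whether the cell make-up had a part in the results below was not tested. In these bulk samples, more transcript per cell and more cells of a kind cannot be told apart.

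At an adjusted limma p under 0.05, 17 of the 43 members rose in DEHP livers and 0 fell. Most of the 17 rose by small amounts, and Cox6b2, the testis form of complex IV subunit 6B, stood far above the rest. Across all tested genes, 9.12% were called higher and 2.4% lower. At an unadjusted limma p below 0.05, 28 members were higher and 0 lower. By a two-sided exact permutation test, unadjusted, 27 were higher and 0 lower. The shares of all tested genes passing these unadjusted thresholds were not counted, so both counts lack a background. The median log2 fold change (DEHP minus CMC, of FPKM + 0.5) was 0.21 over the members and 0.06 over all tested genes. Of the members, 38 had a fold change above 0 and 5 below it. Every DEHP value exceeded every CMC value for 13 members, and the reverse held for 0, where 8.56% of all tested genes were separated upward and 2.14% downward. The 17 that rose comprised 1 of 4 genes of complex II, 4 of 9 of complex III, 8 of 13 of complex IV and 4 of 17 of complex V. Their median log2 fold changes over all tested members were 0.20 for complex II, 0.25 for complex III, 0.29 for complex IV and 0.18 for complex V, and differences between the complexes were not tested.

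**Figure D1:**
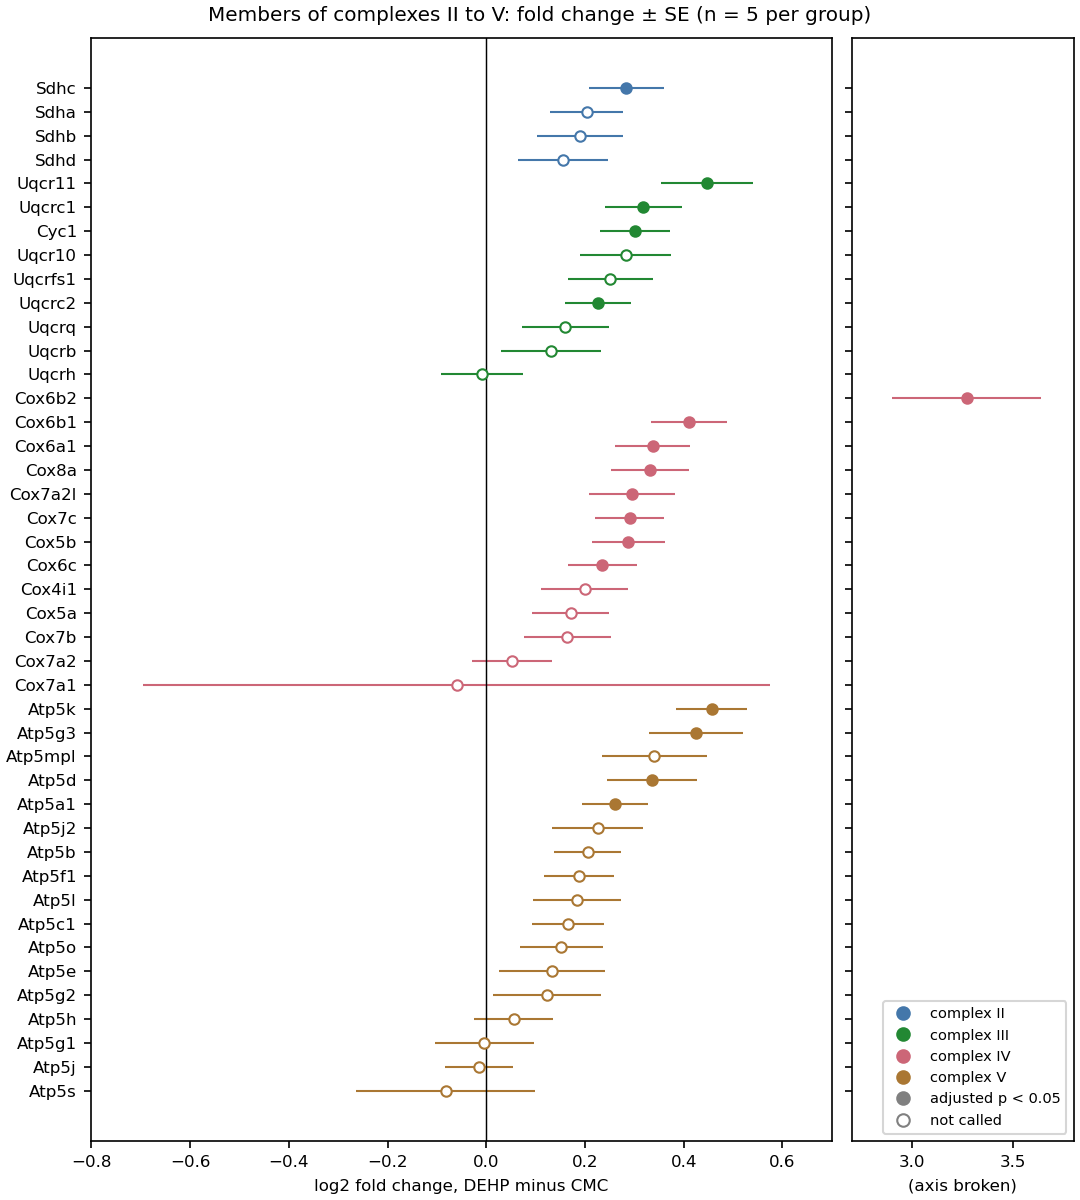
Log2 fold change, DEHP minus CMC, of each of the 43 members with its standard error from limma (n = 5 per group), ordered by complex and then by fold change. Filled points passed an adjusted p below 0.05. Most points lie between 0 and 0.46, and Cox6b2, at 3.27, is drawn beyond the break in the axis.

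The count depends on how the libraries are scaled. FPKM is relative to each library's total, of which the 10 most abundant genes took 22.0% ± 1.18 in DEHP and 23.2% ± 2.19 in CMC libraries (SD, n = 5 each). With median-of-ratios scaling, 4 members were called higher and 0 lower, with a median log2 fold change of 0.13 over the members and -0.01 over all tested genes. With that scaling 5.76% of all tested genes were called higher and 3.9% lower. Quantile normalization also gave 4 members higher and 0 lower, with a median of 0.07 over the members and -0.02 over all tested genes, where 5.43% of tested genes were called higher and 4.86% lower. The 4 members were Cox6b2, Cox6b1, Atp5k and Uqcr11 under both scalings. These 4 were also called under each of the other limma alternatives listed with the methods. Relative to the median of all genes the members stood 0.15 higher on the FPKM scale, 0.14 with median-of-ratios scaling and 0.09 with quantile normalization. Abundance also went with the calls. Of 859 tested genes with a mean of at least 100 FPKM, 24.7% were called higher and 9.55% lower, with a median log2 fold change of 0.12, and 40 of the 43 members lie in that range. With median-of-ratios scaling 15.72% of these abundant genes were called higher, and with quantile normalization 15.02%. Both shares exceeded the 9.30% of the members called higher under either scaling. The medians of the abundant genes, 0.049 and -0.013, lay below those of the members under the same scalings. Transcript length was a further shared feature, since 18 members have annotated transcripts under 700 bases. Of the 309 tested genes under that length, 10.03% were called higher, with a median of 0.13.

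**Figure D2:**
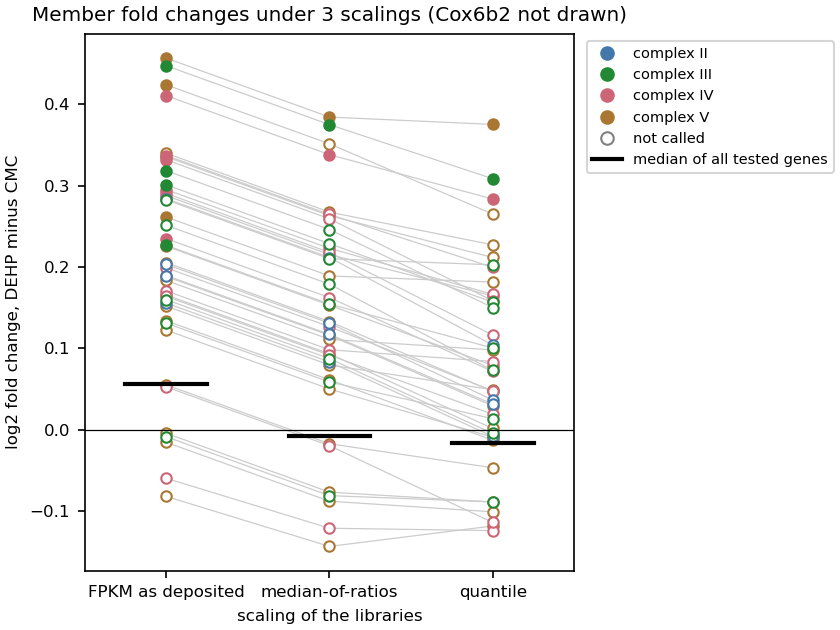
Log2 fold change of each member except Cox6b2 on the deposited FPKM scale, after median-of-ratios scaling and after quantile normalization, with 1 grey line per gene. Filled points passed an adjusted p below 0.05 under that scaling, and black bars mark the median of all tested genes (0.06, -0.01 and -0.02). Nearly all lines run downward from left to right, as does the median gene between the first and the second scaling, and 3 of the genes drawn are filled in every column.

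The start regions of the 4 members called under every scaling are shown because their calls held most widely. That of Atp5g3, whose call was lost under both rescalings, is shown as that of the most abundant member of complex V. Those of Sdhb, Uqcrq and Cox6a1, the most abundant members of complexes II, III and IV, are not shown. The sequences are RefSeq windows of 300 bases on the GRCm38.p6 build, from 250 bases before an annotated transcript start to 50 bases from it, written 5′ to 3′ on the gene's own strand. All 5 genes lie on the minus strand. Capitals mark matches, on either strand, to binding motifs of regulators of respiratory genes or of PPAR factors.
Cox6b2, chr7:4753045-4753344: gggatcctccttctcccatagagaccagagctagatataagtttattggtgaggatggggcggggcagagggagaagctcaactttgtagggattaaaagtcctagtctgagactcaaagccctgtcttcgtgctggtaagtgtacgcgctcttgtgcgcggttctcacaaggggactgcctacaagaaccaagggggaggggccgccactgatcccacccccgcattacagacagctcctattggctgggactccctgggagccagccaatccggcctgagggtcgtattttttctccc
Cox6b1, chr7:30626065-30626364: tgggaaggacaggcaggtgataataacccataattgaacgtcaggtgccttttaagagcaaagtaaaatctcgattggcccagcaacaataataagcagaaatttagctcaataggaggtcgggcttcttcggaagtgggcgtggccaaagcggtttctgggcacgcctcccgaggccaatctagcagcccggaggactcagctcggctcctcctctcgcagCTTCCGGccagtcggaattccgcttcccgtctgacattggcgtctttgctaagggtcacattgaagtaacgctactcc
Atp5g3, chr2:73911277-73911576: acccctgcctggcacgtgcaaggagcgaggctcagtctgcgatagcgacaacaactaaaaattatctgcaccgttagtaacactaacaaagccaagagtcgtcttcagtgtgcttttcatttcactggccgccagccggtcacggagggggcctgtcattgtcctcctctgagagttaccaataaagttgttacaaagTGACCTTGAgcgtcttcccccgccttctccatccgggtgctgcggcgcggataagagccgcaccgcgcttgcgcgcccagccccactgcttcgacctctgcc
Atp5k, chr5:108434350-108434649: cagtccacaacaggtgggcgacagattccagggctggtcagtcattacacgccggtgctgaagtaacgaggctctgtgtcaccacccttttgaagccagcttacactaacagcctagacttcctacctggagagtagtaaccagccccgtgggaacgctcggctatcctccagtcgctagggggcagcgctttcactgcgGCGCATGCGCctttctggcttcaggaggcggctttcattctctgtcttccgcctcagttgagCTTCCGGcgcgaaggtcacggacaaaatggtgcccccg
Uqcr11, chr10:80406772-80407071: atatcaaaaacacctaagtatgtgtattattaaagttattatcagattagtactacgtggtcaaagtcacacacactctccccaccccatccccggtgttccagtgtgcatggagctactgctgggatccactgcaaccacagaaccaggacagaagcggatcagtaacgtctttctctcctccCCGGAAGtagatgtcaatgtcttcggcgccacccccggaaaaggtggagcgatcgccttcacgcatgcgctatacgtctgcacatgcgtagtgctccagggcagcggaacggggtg
The Cox6b1 window holds an ETS match (CCGGAAG, the core bound by GABP) on the opposite strand, beginning 28 bases before the start. The Atp5g3 window, which lies at a start inside the annotated span of the gene, holds an ERR match (TCAAGGTCA, bound by estrogen-related receptors) on the opposite strand at 52 bases before the start. The Atp5k window holds an NRF1 match (GCGCA followed by its reverse complement) 50 bases before the start and an ETS match 12 bases after it. The Uqcr11 window holds an ETS match 66 bases before the start, and the Cox6b2 window holds none of the motifs searched. Of the 43 members, 34 had a window.

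Motif shares among the members' windows were small counts. The NRF1 motif was in 4 of the 34 windows (11.8%), against 2.37% of the windows of 9013 tested genes, and its members were Atp5g2, Atp5k, Cox6a1 and Uqcrc1. The ERR motif was in 2 windows (5.88%), those of Atp5g3 and Sdhd, against 0.344% of tested genes. The ETS motif was in 12 windows (35.3%), against 20.8% of tested genes. The YY1 motif (AAGATGGCG) was in 2 windows (5.88%), against 3.79%, and an ETS match can share its last letters with a YY1 match. The element of PPAR-RXR dimers (AGGTCA repeated after 1 base of any kind) was in 0 of the members' windows, against 5 of the 9013 tested genes (0.0555%). A run of letters this rare would hardly be met in 34 windows, so the 0 shows no lack of such elements. Both strands were searched for each motif, and a match is a run of letters, not a measured binding site.

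Complex II is the smallest set and the one complex with no subunit in mitochondrial DNA. Its catalytic part is made of Sdha, the flavoprotein, and Sdhb, the iron-sulfur protein, and its membrane anchor of Sdhc and Sdhd. Sdhc, 1 of its 4 members, rose. Sdhc had 179.99, 179.6, 186, 169 and 218 FPKM in DEHP libraries 1 to 5, against 151, 151, 159, 156 and 146 FPKM in CMC libraries 1 to 5. All 5 DEHP libraries lay above all 5 CMC libraries, with DEHP 5 the highest. The means were 187 ± 18.8 FPKM in DEHP and 153 ± 5.13 FPKM in CMC livers (SD, n = 5 each), a log2 fold change of 0.28 (adjusted p = 0.0259, SE 0.08). The call was lost without DEHP library 3 or CMC library 1 or 5 (adjusted p = 0.0553 to 0.0615). It was also lost with median-of-ratios scaling (adjusted p = 0.157) and with quantile normalization (adjusted p = 0.361). Sdhb, the most abundant of the 4, had 239, 226, 251, 273 and 309.9 FPKM in DEHP libraries 1 to 5, against 214, 237, 217, 242 and 223 FPKM in CMC libraries 1 to 5. Its groups overlapped, since DEHP 2 lay below CMC 2 and CMC 4 and DEHP 1 below CMC 4, and the log2 fold change was 0.19 (adjusted p = 0.191, SE 0.09). Sdhd, with the smallest fold change of the complex, had 171, 186, 205, 173 and 165 FPKM in DEHP libraries 1 to 5, against 169, 191, 156, 153 and 140.4 FPKM in CMC libraries 1 to 5. CMC 2 lay above all DEHP libraries but DEHP 3, and the log2 fold change was 0.16 (adjusted p = 0.311, SE 0.09). Sdha ran from 159 to 195 FPKM in DEHP and from 147 to 169.9 FPKM in CMC livers, with a log2 fold change of 0.20 (adjusted p = 0.0991, SE 0.07), and passed the threshold without DEHP library 5 (adjusted p = 0.0267). Summed over the 4 genes, complex II stood at 809 ± 31.7 FPKM in DEHP and 699 ± 32.8 FPKM in CMC livers (SD, n = 5 each), 1.16 times as high in DEHP livers, and the groups did not overlap.

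In complex III, 3 of the 4 redox and core subunits rose, and 1 of the 5 small subunits. The calls of the redox and core subunits Cyc1, Uqcrc1 and Uqcrc2 were lost with median-of-ratios scaling and with quantile normalization. Cyc1, cytochrome c1, which hands electrons to cytochrome c, had 261, 249, 273, 265 and 295 FPKM in DEHP libraries 1 to 5, against 225, 224, 220.01, 225 and 196 FPKM in CMC libraries 1 to 5. All DEHP libraries lay above all CMC libraries, and CMC 5 stood below the other CMC libraries. The log2 fold change was 0.30 (adjusted p = 0.0126, SE 0.07). Uqcrc1, core protein 1, had 213, 212, 213, 212 and 263 FPKM in DEHP libraries 1 to 5, against 168, 192, 179.8, 179 and 171 FPKM in CMC libraries 1 to 5. DEHP libraries 1 to 4 lay within 2 FPKM of each other, DEHP 5 stood above them, and all 5 exceeded the CMC libraries. The log2 fold change was 0.32 (adjusted p = 0.0161, SE 0.08). Uqcrc2, core protein 2, had 139, 135, 146, 132 and 139 FPKM in DEHP libraries 1 to 5, against 112, 121, 122, 126 and 111 FPKM in CMC libraries 1 to 5. The groups did not overlap, and the log2 fold change was 0.23 (adjusted p = 0.0416, SE 0.07). This call was lost when any library other than CMC 2 was left out (adjusted p = 0.0503 to 0.102). Uqcrfs1, the Rieske iron-sulfur protein, ran from 212 to 254 FPKM in DEHP and from 169 to 222 FPKM in CMC livers, with a log2 fold change of 0.25 (adjusted p = 0.0762, SE 0.09), and passed without CMC library 2 (adjusted p = 0.0358).

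Among the small subunits of complex III, Uqcr11 rose by the most. It lies on chromosome 10 from 80402997 to 80406821. Uqcr11 had 1023, 827, 1020.1, 919 and 1112 FPKM in DEHP libraries 1 to 5, against 742, 825, 671, 633 and 719.6 FPKM in CMC libraries 1 to 5. DEHP 2 lay just above CMC 2, and the other 4 DEHP libraries well above every CMC library. The means were 980.3 ± 109 FPKM in DEHP and 718 ± 73.2 FPKM in CMC livers (SD, n = 5 each), a log2 fold change of 0.45 (adjusted p = 0.00628, SE 0.09). Uqcrq, the most abundant gene of the complex, had 1387, 1173, 1409, 1294 and 1566 FPKM in DEHP libraries 1 to 5, against 1175, 1411, 1193, 1116 and 1208 FPKM in CMC libraries 1 to 5. DEHP 2 gave the second lowest of the 10 values and CMC 2 lay above 4 of the 5 DEHP libraries, so the groups overlapped, with a log2 fold change of 0.16 (adjusted p = 0.279, SE 0.09). Uqcrh, the hinge protein, had the smallest fold change of the complex. Its values were 379.8, 312, 373, 363 and 368 FPKM in DEHP libraries 1 to 5, against 334, 415, 369, 362 and 329 FPKM in CMC libraries 1 to 5. DEHP 2 gave the lowest and CMC 2 the highest of the 10 values, and the log2 fold change was -0.01 (adjusted p = 0.967, SE 0.08). Uqcr10 and Uqcrb gave log2 fold changes of 0.28 (adjusted p = 0.0636, SE 0.09) and 0.13 (adjusted p = 0.459, SE 0.10). Uqcr10 passed the threshold without DEHP library 2 or CMC library 2 (adjusted p = 0.0352 and 0.0104). Summed over the 9 genes, complex III stood at 4358 ± 349.8 FPKM in DEHP and 3692 ± 282 FPKM in CMC livers (SD, n = 5 each), 1.18 times as high in DEHP livers, with CMC 2 above DEHP 2.

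In complex IV, 8 of the 13 members rose. Of the 10 subunits of the liver set, 6 rose, as did Cox7a2l and 1 of the 2 isoforms of other tissues. With median-of-ratios scaling or quantile normalization, only Cox6b1 and Cox6b2 of this complex were still called. Cox6a1, the liver form of subunit 6A and the most abundant gene of the complex, had 1426, 1268, 1437, 1389.99 and 1681 FPKM in DEHP libraries 1 to 5, against 1125, 1161, 1179, 1121 and 1092 FPKM in CMC libraries 1 to 5. All DEHP libraries exceeded all CMC libraries, with DEHP 5 the highest, and CMC values lay close together. The means were 1440.3 ± 150.2 FPKM in DEHP and 1136 ± 34.6 FPKM in CMC livers (SD, n = 5 each), a log2 fold change of 0.34 (adjusted p = 0.0101, SE 0.08). Cox6b1, the common form of subunit 6B, lies on chromosome 7 from 30616971 to 30626114. Cox6b1 had 734, 647, 726, 635 and 787 FPKM in DEHP libraries 1 to 5, against 507, 559, 522, 569.6 and 493 FPKM in CMC libraries 1 to 5. The groups did not overlap, and the log2 fold change was 0.41 (adjusted p = 0.00343, SE 0.08). Cox5b, a zinc-binding subunit, had 609, 601, 657, 632 and 747 FPKM in DEHP libraries 1 to 5, against 515, 558, 506, 552 and 521 FPKM in CMC libraries 1 to 5. DEHP 5 stood highest and the groups did not overlap. The log2 fold change was 0.29 (adjusted p = 0.0208, SE 0.07), and the call was lost without DEHP library 3 or CMC library 1 or 3 (adjusted p = 0.0516 to 0.0556).

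Cox7c, a small membrane subunit, had 864, 813, 944, 916 and 929 FPKM in DEHP libraries 1 to 5, against 681, 792, 734, 739.9 and 704 FPKM in CMC libraries 1 to 5. DEHP 2 lay just above CMC 2, the groups did not overlap, and the log2 fold change was 0.29 (adjusted p = 0.0142, SE 0.07). Cox8a, the common form of subunit 8, had 911, 789.7, 957, 868 and 973 FPKM in DEHP libraries 1 to 5, against 705, 812, 678, 692 and 685 FPKM in CMC libraries 1 to 5. CMC 2 stood apart from the other CMC libraries and lay above DEHP 2, the only crossing. The log2 fold change was 0.33 (adjusted p = 0.0131, SE 0.08). Cox6c, another small membrane subunit, had 732, 644, 745, 742 and 704 FPKM in DEHP libraries 1 to 5, against 569, 652, 633, 572 and 604 FPKM in CMC libraries 1 to 5. Here too DEHP 2 lay below CMC 2, and the log2 fold change was 0.23 (adjusted p = 0.0442, SE 0.07). Cox7a2l, which joins complexes III and IV into supercomplexes and is known to be truncated in C57BL/6 mice, had 124, 102, 127, 129 and 121 FPKM in DEHP libraries 1 to 5, against 93.9, 111, 99.9, 85.5 and 101 FPKM in CMC libraries 1 to 5. DEHP 2 lay below CMC 2 and apart from the other DEHP libraries, and the log2 fold change was 0.30 (adjusted p = 0.0436, SE 0.09). Both calls, of Cox6c and of Cox7a2l, were lost when any library other than DEHP 2 or CMC 2 was left out (adjusted p = 0.0534 to 0.112).

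The other 4 subunits of the liver set did not pass the test. Cox4i1, the common form of subunit 4, had 965, 846, 979, 946 and 1162 FPKM in DEHP libraries 1 to 5, against 779, 961, 846, 828 and 839 FPKM in CMC libraries 1 to 5. DEHP 2 and DEHP 4 lay below CMC 2, and the log2 fold change was 0.20 (adjusted p = 0.170, SE 0.09). Cox7a2, the liver form of subunit 7A, had 233, 193, 234, 235 and 229 FPKM in DEHP libraries 1 to 5, against 197, 241, 219, 224 and 202 FPKM in CMC libraries 1 to 5. DEHP 2 was the lowest of the 10 and CMC 2 the highest, and the log2 fold change was 0.05 (adjusted p = 0.749, SE 0.08). The annotated span of Cox7a2 overlaps that of Tmem30a, whose log2 fold change was -0.08. Cox7b, a further membrane subunit, had 163, 135, 163, 159 and 131 FPKM in DEHP libraries 1 to 5, against 129.97, 153, 129, 124 and 132 FPKM in CMC libraries 1 to 5. DEHP 2 and DEHP 5 lay within the CMC range, and the log2 fold change was 0.16 (adjusted p = 0.267, SE 0.09). Cox5a, which like Cox5b faces the mitochondrial matrix, gave a log2 fold change of 0.17 (adjusted p = 0.189, SE 0.08). Summed over its 13 genes, complex IV stood at 7151 ± 543 FPKM in DEHP and 5871 ± 302 FPKM in CMC livers (SD, n = 5 each), 1.22 times as high in DEHP livers. The groups crossed by a few FPKM between CMC 2 and DEHP 2.

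**Figure D3:**
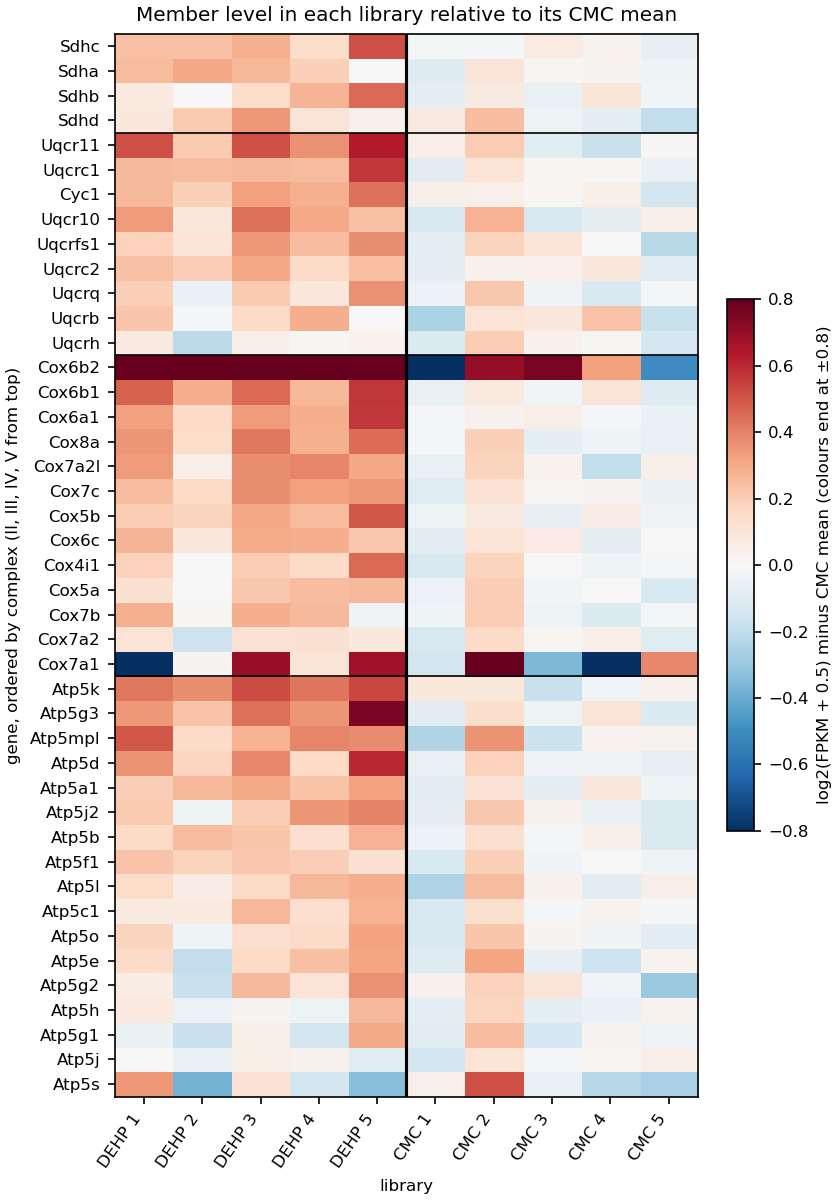
Level of each member in each library, as log2(FPKM + 0.5) minus the mean of the 5 CMC libraries of that gene, with DEHP libraries on the left and genes ordered by complex. Red marks higher and blue lower values, and colours end at ±0.8. The column of CMC 2 is mostly red among the CMC libraries, and the column of DEHP 2 is the palest among the DEHP libraries.

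Cox6b2 made up the largest difference of the set. The gene lies on chromosome 7 from 4751792 to 4753094, with no annotated gene overlapping it, and its protein replaces Cox6b1 in testis. Cox6b2 had 11.9, 8.73, 15.1, 8.45 and 13.4 FPKM in DEHP libraries 1 to 5, against 0, 1.48, 1.56, 1.03 and 0.360 FPKM in CMC libraries 1 to 5. The lowest DEHP value was over 5 times the highest CMC value, and CMC 1 was listed at 0. The means were 11.5 ± 2.91 FPKM in DEHP and 0.886 ± 0.687 FPKM in CMC livers (SD, n = 5 each), a 13.0-fold ratio of means and a log2 fold change of 3.27 (adjusted p = 0.000249, SE 0.37). Only 3 of the CMC libraries reached 0.5 FPKM, so the gene met the filter of 0.5 FPKM in 5 libraries only with its DEHP libraries. The log2 fold change lay above that of 99.9% of tested genes. Of 8 testis germ cell markers, Tssk6 alone was in the table, at 0 to 0.32 FPKM in DEHP and 0 to 0.32 FPKM in CMC livers. Among Cox6b1 and Cox6b2 transcripts, Cox6b2 made up 1.59% ± 0.296 of the FPKM in DEHP and 0.163% ± 0.126 in CMC livers (SD, n = 5 each), so Cox6b1 held nearly all of the subunit 6B signal in both groups.

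The other tissue isoforms of complex IV were low, and Cox7a1, the 1 of them that was tested, did not pass. Cox7a1, the heart and muscle form of subunit 7A, had 1.07, 5.03, 8.35, 5.37 and 8.21 FPKM in DEHP libraries 1 to 5, against 4.43, 15.2, 3.75, 1.57 and 6.62 FPKM in CMC libraries 1 to 5. The values scattered widely in both groups, and the log2 fold change was -0.06 (adjusted p = 0.971, SE 0.64). Its part of the summed Cox7a1 and Cox7a2 FPKM was 2.43% ± 1.23 in DEHP and 2.73% ± 1.99 in CMC livers (SD, n = 5 each). Cox8b, the heart and muscle form of subunit 8, was listed at 1.08 FPKM in DEHP 3 and 0.56 FPKM in DEHP 4, and at 0 in the other 3 DEHP and all 5 CMC libraries. Cox4i2, the lung form of subunit 4, was at 0.23, 0.22, 0.23, 0.23 and 0 FPKM in DEHP libraries 1 to 5, and at 0.23 FPKM in CMC 2 and 0 in the other CMC libraries. Cox6a2, the heart and muscle form of subunit 6A, was listed at 0 in all 10 libraries.

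ATP synthase consists of an F1 head on a central stalk, a rotating ring of c subunits in the membrane, a peripheral stalk and small membrane subunits. Of the 5 genes of the head and central stalk, 2 rose. Both calls were lost with median-of-ratios scaling and with quantile normalization (limma, adjusted p = 0.0755 to 0.112). Atp5a1, the alpha subunit of the head, had 471, 495, 507, 482 and 514 FPKM in DEHP libraries 1 to 5, against 387, 445, 392, 436 and 402 FPKM in CMC libraries 1 to 5. The groups did not overlap, the DEHP values lay close together, and the log2 fold change was 0.26 (adjusted p = 0.0204, SE 0.07). The call was lost without DEHP library 3 or CMC library 1 or 3 (adjusted p = 0.0546 to 0.0572). Atp5d, the delta subunit of the central stalk, had 559, 491, 570.1, 487 and 662 FPKM in DEHP libraries 1 to 5, against 418, 495, 427, 427 and 416 FPKM in CMC libraries 1 to 5. CMC 2 stood apart from the other CMC libraries and above DEHP 2 and DEHP 4. The log2 fold change was 0.34 (adjusted p = 0.0270, SE 0.09), and the call was lost without DEHP library 1 or 3 or CMC library 1, 3, 4 or 5 (adjusted p = 0.0593 to 0.0672). The annotated span of Atp5d overlaps that of Cbarp, which stood near 1 FPKM in both groups. Atp5b, the catalytic beta subunit, ran from 758 to 842 FPKM in DEHP and from 642 to 759 FPKM in CMC livers, with a log2 fold change of 0.21 (adjusted p = 0.0679, SE 0.07), and passed without CMC library 2 (adjusted p = 0.0298). Atp5c1, the gamma shaft, and Atp5e, the epsilon subunit, gave log2 fold changes of 0.17 (adjusted p = 0.174, SE 0.07) and 0.13 (adjusted p = 0.482, SE 0.11).

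The c subunit is encoded by Atp5g1, Atp5g2 and Atp5g3, whose mature proteins are the same. Atp5g3, the most abundant gene of complex V, rose. Atp5g3 had 944, 871, 1007, 951 and 1249.97 FPKM in DEHP libraries 1 to 5, against 697, 817, 722, 799 and 687 FPKM in CMC libraries 1 to 5. DEHP 5 stood highest, and DEHP 2 lay above CMC 2, so the groups did not overlap. The means were 1004 ± 145 FPKM in DEHP and 745 ± 59.8 FPKM in CMC livers (SD, n = 5 each), a log2 fold change of 0.42 (adjusted p = 0.00980, SE 0.10). The call was lost with median-of-ratios scaling and with quantile normalization (adjusted p = 0.0539 and 0.0561). Atp5g1 had 325, 299, 349, 305 and 417 FPKM in DEHP libraries 1 to 5, against 319, 401, 306, 343 and 328 FPKM in CMC libraries 1 to 5. The groups covered nearly the same range, with a log2 fold change of -0.0044 (adjusted p = 0.987, SE 0.10). Atp5g2 had 305, 259, 350.4, 317 and 378 FPKM in DEHP libraries 1 to 5, against 299.7, 333, 315, 289 and 238 FPKM in CMC libraries 1 to 5. Its groups overlapped too, with a log2 fold change of 0.12 (adjusted p = 0.533, SE 0.11).

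The make-up of the c subunit pool was also taken as shares, a scale on which library scaling cancels. Atp5g3 made up 59.97, 60.95, 59.00, 60.4 and 61.1% of the summed FPKM of the 3 genes in DEHP libraries 1 to 5, against 52.99, 52.7, 53.8, 55.8 and 54.8% in CMC libraries 1 to 5. Every DEHP value lay above every CMC value, at 60.3% ± 0.854 and 54.0% ± 1.30 (SD, n = 5 each), a difference of 6.27 percentage points. The Atp5g1 share was lower in every DEHP library than in every CMC library, at 20.4% ± 0.572 in DEHP and 24.6% ± 1.40 in CMC livers (SD, n = 5 each). The Atp5g2 share was 19.3% ± 1.03 in DEHP and 21.4% ± 1.82 in CMC livers (SD, n = 5 each), with overlap. No test was run on these shares.

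**Figure D4:**
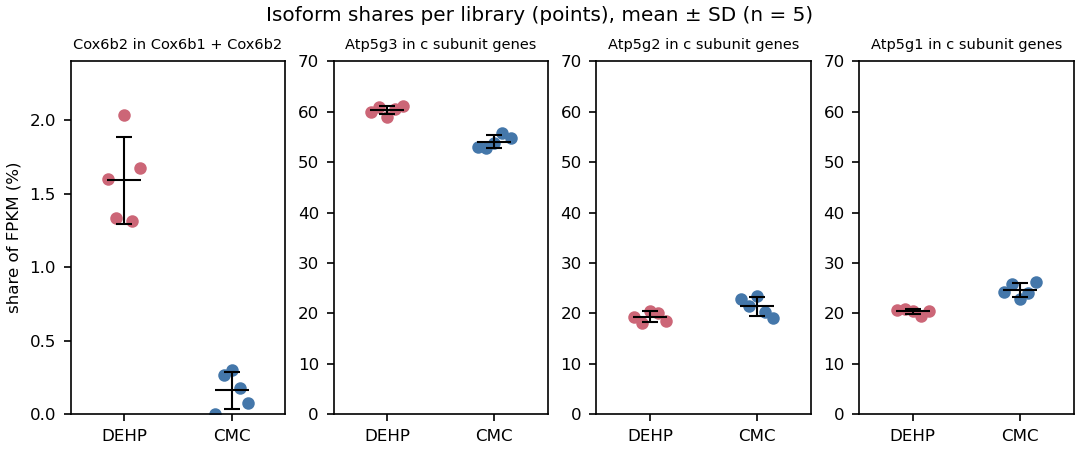
Share of each isoform in the summed FPKM of its isoform group, in percent, per library (points) with the mean and SD of 5 DEHP and 5 CMC libraries. Cox6b2 makes up 1.31 to 2.04% of subunit 6B in DEHP libraries and 0 to 0.298% in CMC libraries, on an axis of its own. Atp5g3 separates the groups upward (60.3% against 54.0%) and Atp5g1 downward (20.4% against 24.6%), and Atp5g2 overlaps.

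Among the 4 small membrane subunits that carry an Atp5 symbol, Atp5k rose. Atp5k, subunit e, which helps ATP synthase form dimers, lies on chromosome 5 from 108433246 to 108434399. Atp5k had 456, 439, 488, 457 and 491 FPKM in DEHP libraries 1 to 5, against 360.4, 360.03, 299.7, 334 and 347 FPKM in CMC libraries 1 to 5. All DEHP libraries lay well above all CMC libraries, and CMC 3 was the lowest. The means were 466 ± 22.5 FPKM in DEHP and 340.1 ± 25.1 FPKM in CMC livers (SD, n = 5 each), a log2 fold change of 0.46 (adjusted p = 0.000960, SE 0.07). Atp5mpl had a log2 fold change of 0.34 (adjusted p = 0.0538, SE 0.11), with values from 293 to 372 FPKM in DEHP and from 222 to 338 FPKM in CMC livers. It passed the threshold without DEHP library 2 or CMC library 2 (adjusted p = 0.0399 and 0.00604). Atp5j2, subunit f, and Atp5l, subunit g, gave 0.23 (adjusted p = 0.140, SE 0.09) and 0.18 (adjusted p = 0.220, SE 0.09) on the log2 scale, and Atp5j2 passed without DEHP library 2 (adjusted p = 0.0444).

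None of the 4 genes of the peripheral stalk, which holds the F1 head still, passed the test on the deposited scale, and their unadjusted limma p fell below 0.05 for Atp5f1 alone. Atp5f1, subunit b, gave a log2 fold change of 0.19 (adjusted p = 0.106, SE 0.07) and passed without CMC library 2 (adjusted p = 0.0264). Atp5o, known as OSCP, Atp5h, subunit d, and Atp5j, coupling factor 6, gave 0.15 (adjusted p = 0.286, SE 0.08), 0.06 (adjusted p = 0.729, SE 0.08) and -0.02 (adjusted p = 0.925, SE 0.07). Atp5s, factor B, with the smallest fold change of the complex and a low level, had 3.87, 2.15, 3.22, 2.60 and 2.21 FPKM in DEHP libraries 1 to 5, against 3.03, 4.41, 2.80, 2.43 and 2.37 FPKM in CMC libraries 1 to 5. The groups overlapped throughout, with a log2 fold change of -0.08 (adjusted p = 0.837, SE 0.18). Summed over the 17 genes, complex V stood at 7849 ± 587 FPKM in DEHP and 6743 ± 534 FPKM in CMC livers (SD, n = 5 each), 1.16 times as high in DEHP livers, with CMC 2 above DEHP 2 alone.

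**Figure D5:**
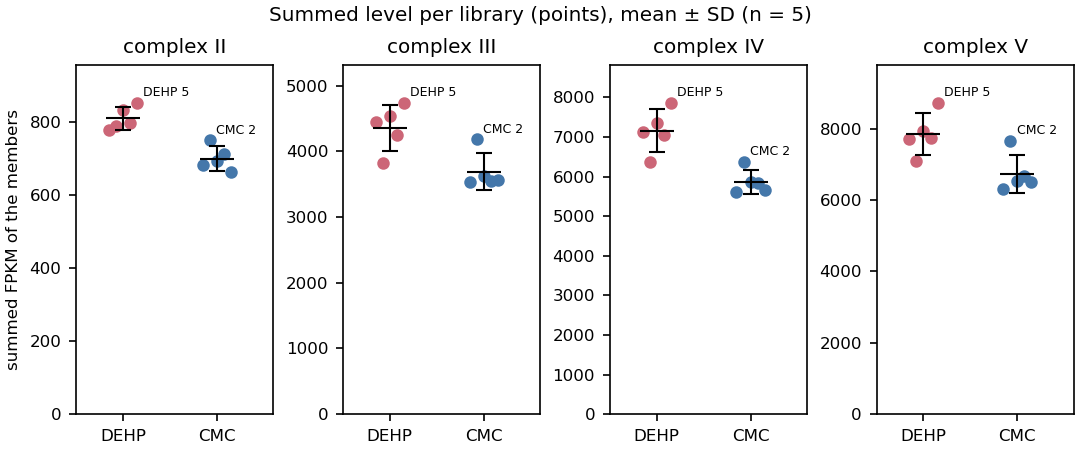
Summed FPKM of the members of each complex per library (points), with the mean and SD of 5 DEHP and 5 CMC libraries, on axes that start at 0. The group means differ 1.16 to 1.22 times. On this scale complex II separates the groups, and in complexes III, IV and V the highest CMC library, CMC 2, lies above the lowest DEHP library.

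A few libraries stood apart over many members at once. CMC 2 had the highest value of its group for 34 of the 43 members, with a median deviation of 0.18 on the log2 scale from the group mean of each gene. Over all tested genes CMC 2 was highest in its group for 33.3%, with a median deviation of 0.06. DEHP 2 had the lowest value of its group for 28 members, with a median deviation of -0.15, whereas over all tested genes its median deviation was 0.02. How often DEHP 2 was lowest over all tested genes was not counted. DEHP 5 had the highest for 26 members, with a median deviation of 0.12. Over all tested genes DEHP 5 was highest in its group for 18.1%, with a median deviation of -0.06. The median coefficient of variation of the members was 9.03% in DEHP and 8.12% in CMC livers. Without CMC library 2, 22 members were called higher and all 43 fold changes were above 0. Without DEHP library 3, CMC library 1 or CMC library 3, the count was 10, 10 and 11. Calls over all tested genes moved as well. With all libraries 1025 of the 11242 tested genes were called higher. This was 1011 without CMC library 2 and 747 without DEHP library 3, the highest and lowest counts with 1 library left out. Taken over all members, complexes II to V made up 2.82% ± 0.191 of the summed FPKM of a DEHP library and 2.38% ± 0.196 of that of a CMC library (SD, n = 5 each), with CMC 2 at 2.73% and DEHP 2 at 2.63%. Overlap of the complex sums turned on this scale for complexes II and IV. As a percent of the library sum, complex II overlapped, at 0.106% in DEHP 4 and 0.108% in CMC 2. Complex IV did not overlap on that scale, at 0.925% in DEHP 2 and 0.916% in CMC 2.

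Genes that build, supply or regulate these complexes were compared in the same fit. Of 69 such genes, 20 rose and 0 fell, where 9.12% of all tested genes were called higher. With median-of-ratios scaling 10 were called higher, against 5.76% of all tested genes, and with quantile normalization 8, against 5.43%. The list of electron carriers and ubiquinone genes held 9 of the 20, out of 14 listed. Of the 9, all but Etfdh and Cycs belong to the synthesis of ubiquinone. Coq4, Coq8a, Coq9 and Etfdh were called under both rescalings, and Coq6 with median-of-ratios scaling but not with quantile normalization. Coq9, a lipid-binding partner in that pathway, was at 85.1 ± 4.80 FPKM in DEHP and 59.9 ± 0.697 FPKM in CMC livers, a log2 fold change of 0.50 (adjusted p = 0.000216, SE 0.07). Coq8a, an atypical kinase-like protein of the pathway, was at 149.6 ± 13.4 FPKM in DEHP and 96.9 ± 8.57 FPKM in CMC livers, a log2 fold change of 0.62 (adjusted p = 0.000284, SE 0.08). In both, the groups did not overlap. Coq4, a scaffold of the ubiquinone complex, was at 6.94 ± 1.18 FPKM in DEHP and 3.08 ± 0.969 FPKM in CMC livers, a log2 fold change of 1.08 (adjusted p = 0.00120, SE 0.17). Etfdh, which passes electrons from fatty acid oxidation to ubiquinone, was at 131 ± 15.3 FPKM in DEHP and 96.02 ± 2.22 FPKM in CMC livers, a log2 fold change of 0.44 (adjusted p = 0.00384, SE 0.08). The other genes of this list that rose were Coq2, Coq5, Coq6, Coq7 and Cycs, the last of which encodes cytochrome c.

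Among assembly and accessory factors, 1 of 4 rose for complex II (Sdhaf1), 4 of 7 for complex III (Bcs1l, Uqcc1, Uqcc3 and Tmem242), 3 of 27 for complex IV (Cox17, Coa6 and Cox18) and 2 of 5 for complex V (Atpif1 and Tmem70). The complex IV count lies near the 9.12% of all tested genes called higher. Of the complex III factors, Bcs1l alone was called under both rescalings, and of the complex IV factors Cox17 and Coa6. Tmem242 stood on the complex III list, although in human cells its protein is known for a part in building the ATP synthase ring. Ndufa4 on the complex IV list and Usmg5 on the complex V list encode subunits whose symbols fall outside the member rule. Neither was called. Atpif1, the inhibitor that blocks ATP hydrolysis by the synthase, was at 25.8 ± 4.03 FPKM in DEHP and 13.5 ± 2.37 FPKM in CMC livers, a log2 fold change of 0.91 (adjusted p = 0.000528, SE 0.13). Its groups did not overlap. Cox17, the copper chaperone of complex IV, was at 137 ± 9.39 FPKM in DEHP and 99.7 ± 11.1 FPKM in CMC livers, a log2 fold change of 0.46 (adjusted p = 0.00375, SE 0.09). Coa6, a further factor of copper delivery, was at 45.3 ± 3.22 FPKM in DEHP and 32.6 ± 5.13 FPKM in CMC livers, with CMC 4 inside the DEHP range and a log2 fold change of 0.48 (adjusted p = 0.00650, SE 0.10). Tmem70, which helps build the c ring, was at 29.9 ± 1.997 FPKM in DEHP and 23.4 ± 0.785 FPKM in CMC livers, a log2 fold change of 0.34 (adjusted p = 0.00772, SE 0.07), and was lost with quantile normalization. Of the partners that rose, Sdhaf1, Uqcc1, Tmem242, Cox18, Coq2, Coq5, Coq6, Coq7 and Cycs each lost the call without at least 3 of the libraries, left out in turn (adjusted p = 0.0503 to 0.0849). Of 12 transcriptional regulators, Esrra, an estrogen-related receptor, rose, with a log2 fold change of 0.31 (adjusted p = 0.0380, SE 0.09). Its call was lost under both rescalings and without DEHP library 2, 3 or 4 or CMC library 1, 3, 4 or 5 (adjusted p = 0.0510 to 0.0887). Ppargc1a, a coactivator of respiratory genes, and Nrf1 gave -0.09 (adjusted p = 0.836, SE 0.20) and -0.36 (adjusted p = 0.137, SE 0.14).

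Other mitochondrial and ribosomal gene groups were counted in the same way, against 9.12% of all tested genes called higher on the FPKM scale and 5.76% with median-of-ratios scaling. Of 36 nuclear subunits of complex I, 8 were called higher and 0 lower, with a median log2 fold change of 0.23, and 4 with median-of-ratios scaling. Of 78 mitochondrial ribosomal proteins, 26 were called higher and 0 lower, with a median of 0.23, and 11 with median-of-ratios scaling. Of 82 cytosolic ribosomal proteins, 2 were called higher and 0 lower, with a median of 0.09, and with median-of-ratios scaling 0 higher and 1 lower. No test compared these groups with complexes II to V.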

How the data were processed

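Liver RNA was extracted with Trizol and made into libraries with an Illumina TruSeq kit, per the labels. The authors deposited 1 table with 1 FPKM value per gene and library, per the file headers. The submitters' processing notes name Cuffdiff and the builds mm10 and GRCm38, without versions or roles. The aligner was not given in the sources used here. FPKM is relative to the library total, so genes that lose much of that total raise all other values. Many subunit genes have processed copies in the genome, and whether reads were shared with those copies, or with genes that overlap them, cannot be seen in FPKM values. Raw counts are not in the table, which kept count models out, and total depth is unknown. All 10 sample columns were used, and 0 other sample columns were left out.

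Samples were grouped by their treatment label. Of 16874 genes, 630 were at 0 in every library, and the 11242 with at least 0.5 FPKM in at least 5 libraries were tested as log2(FPKM + 0.5). The tool was limma 3.58.1 (R 4.3.3), run with trend and robust both on. P-values were adjusted by Benjamini-Hochberg over all tested genes, two-sided, with a threshold of 0.05. Fold changes on this scale understate the change of low genes. Summed levels of complexes and isoform shares are described without a test. The exact permutation test per member used 252 regroupings, whose smallest p is 0.00794. Relative depth, estimated from the steps of low values in 7820 genes with 1 transcript, ran from 0.979 to 1.01 of the mean in DEHP and from 0.983 to 1.03 in CMC libraries, and this estimate was not tested on simulated depths.

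The members, the lists of partner genes and markers and the tests were chosen with earlier results of these data known. Values in every library are given for each called member, for the members of each complex with the smallest or largest fold change or the highest mean, and for each isoform of the isoform groups. Of the partner genes, every called one is named, with values for the 8 of smallest p. Coordinates, promoter windows and overlaps come from RefSeq on GRCm38.p6, and transcript lengths from GENCODE M21. Alternatives were pseudocounts of 0.1 and 1, no filter, a stricter filter of 2 FPKM, quantile normalization, scaling by median of ratios, rescaling without the 10 most abundant genes, the replicate number as a block, array weights, limma with trend and robust off, the exact permutation test, leaving out DEHP library 5 together with CMC library 2, and leaving out each library in turn. Tables were made with Python 3.11.15, NumPy 2.4.6 and pandas 2.3.3, and figures with Matplotlib 3.10.9.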

Additional observations from a re-analysis of the deposited data

Results flagged for a closer look

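Among the 5 values of a group, 11 stood apart from the other 4 by more than Dixon's critical value of 0.71 for the gap divided by the range, in 106 groups examined. Of the 86 groups of single members, 8 held such a value. Chance alone sets apart about 1 in 20 groups.

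In DEHP livers, library 2 was low for Uqcrh at 312 FPKM, where the other 4 ran from 363 to 379.8 FPKM. It was also low for Cox7a2 at 193 FPKM, where the others ran from 229 to 235 FPKM, and for Cox7a2l at 102 FPKM, where the others ran from 121 to 129 FPKM. DEHP library 5 was high for Uqcrc1 at 263 FPKM, above the 212 to 213 FPKM of the other 4.

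In CMC livers, library 2 was high for Cox8a at 812 FPKM, for Atp5d at 495 FPKM and for Cox7b at 153 FPKM, where the other 4 reached at most 705, 427 and 132 FPKM. The same library stood high in the summed FPKM of complex III (4191 FPKM), of complex V (7669.8 FPKM) and of complexes II to V together (18989 FPKM). CMC library 5 was low for Cyc1 at 196 FPKM, below the 220.0 to 225 FPKM of the other 4. The cause of these differences was not tested.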

How the results depend on the processing

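No member of complexes II to V was called lower under any limma alternative run, and Cox6b2, Cox6b1, Atp5k and Uqcr11 were called higher in all of them. Counts of other calls moved with the processing, and the cause was not tested. Over all genes, calls were 647 higher and 438 lower with median-of-ratios scaling, and 611 higher and 546 lower with quantile normalization. For the members, there were 4 calls with either scaling and 10 with limma without trend or robust variance. Without trend or robust variance, higher calls over all genes lay between the 647 of median-of-ratios scaling and the 1025 of the main fit. Leaving out each library gave 10 to 22, where calls over all genes ran from 747 to 1011 higher. In complex II, calls were 0 with either scaling and without trend or robust variance, 2 with array weights and 2 without DEHP library 5 and CMC library 2, and 0 to 2 leaving out each library. Complex III had 1 with either scaling. Complex IV had 2 with either scaling, 5 without trend or robust variance, and 5 to 8 leaving out each library. Complex V had 1 with either scaling, 5.88% of its 17 members, near the 5.76% and 5.43% of all tested genes. It had 2 without trend or robust variance, 7 with array weights and 7 without DEHP library 5 and CMC library 2. Over all genes, higher calls rose above the 1025 of the main fit with array weights. Without DEHP library 5 and CMC library 2 they fell below it. Leaving out each library gave complex V 2 to 7. Partner genes called were 10 with median-of-ratios scaling, 8 with quantile normalization and 12 to 18 leaving out each library. The log2 ratio of the complex II sums was 0.21 on the FPKM scale and 0.14 with median-of-ratios scaling. The same size factors apply to the sums of the other complexes, so those ratios depend on the scaling too.

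With the replicate number as a block, 6 members were called (Cox6b2, Cox6b1, Cox6a1, Uqcr11, Atp5k and Atp5g3), with 0 in complex II, 1 in III, 3 in IV and 2 in V. The main fit called 17 members and 1025 of all tested genes higher. With the block, higher calls over all genes lay within the 747 to 1011 found when leaving out each library. The labels state no pairing. Deviations of same-numbered libraries correlated at -0.07 to 0.05, and no DEHP library correlated best with its own number. These values show no pairing by number, but they cannot exclude one.

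Members that were not called changed sign under some settings. Quantile normalization gave log2 fold changes of -0.0046 for Uqcrq, -0.0129 for Atp5e, -0.0092 for Atp5g2, -0.0083 for Sdhd, -0.0468 for Atp5h and -0.114 for Cox7a2, and median-of-ratios scaling gave -0.0173 for Atp5h and -0.0197 for Cox7a2. Array weights gave 0.0045 for Atp5j, 0.0112 for Uqcrh and 0.0392 for Atp5s. Without DEHP library 5 and CMC library 2 the values were 0.0315 for Atp5j, 0.0325 for Uqcrh, 0.137 for Cox7a1 and 0.112 for Atp5s. Leaving out each library gave -0.0544 to 0.0113 for Atp5j, -0.0420 to 0.0423 for Uqcrh, -0.0818 to 0.0571 for Atp5g1, -0.409 to 0.375 for Cox7a1 and -0.189 to 0.0464 for Atp5s. The precision is limited by 5 libraries per group and by a depth that FPKM does not give.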
